A study of Mus musculus with 22 samples.

Results

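Potassium channel genes were described across ventral and dorsal striatum in mice that took oxycodone or received saline. The genes are all protein-coding genes whose symbol begins with Kcn and whose mean over the 22 libraries was at least 1 CPM, that is, 1 count in 1000000. Of 94 such genes in the table of 23119, 78 met that minimum and 16 did not, 2 of them with no count in any library. Kcnmb2 at 1.01 CPM, Kcnj5 at 1.05 CPM and Kcne4 at 1.07 CPM lay just inside the minimum, and Kcnk7 at 0.972 CPM, Kcng4 at 0.908 CPM and Kcnk5 at 0.641 CPM just outside it. The 78 members comprise 15 voltage-gated subunits of the Kcna to Kcnd families, 8 electrically silent subunits (Kcnf, Kcng, Kcns and Kcnv), 5 Kcnq genes and 8 Kcnh genes. A further 13 are inward rectifiers (Kcnj) and 9 two-pore channels (Kcnk). The rest are 7 genes of the calcium- or sodium-activated families (Kcnma, Kcnn, Kcnt and Kcnu) and 13 auxiliary genes (Kcnab, Kcne, Kcnip, Kcnmb and Kcnrg).

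All libraries came from adult male C57BL/6J mice. Mice of the oxycodone groups gave themselves oxycodone, an opioid analgesic, at 0.25 mg/kg per infusion in 4 h daily sessions over 14 days, and yoked controls were infused with saline on the same schedule. Bulk tissue RNA was sequenced in 6 saline and 6 oxycodone libraries of ventral striatum and in 5 and 5 of dorsal striatum. The labels do not tie each library to an animal, and in each dorsal group 2 titles carry the same number, so the p-values measure the spread between these libraries.

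A potassium channel opens a pore that lets potassium leave the cell and pulls the membrane back toward rest, and the type of channel sets when this happens: on depolarisation, on a rise of internal calcium or sodium, on the arrival of G-protein beta-gamma subunits, or at rest. Medium spiny neurons, the projection neurons of the striatum, are known for a very negative resting potential held by strong inward rectifiers and for A-type currents through Kv4 channels that delay their firing. Opioid receptors are coupled to Gi/o proteins and open G-protein-gated inward rectifiers (GIRK channels) in many neurons.

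Every pore-forming subunit carries a selectivity filter, and the coding sequence of each member was searched for it as a threonine or serine, any residue, a glycine, then a tyrosine, phenylalanine or leucine, and a second glycine. All 65 pore-forming members held at least 1 match and none of the 13 auxiliary members held any. All 9 two-pore genes, whose subunits repeat the pore region, held 2, and Kcna6 and Kcnh2 also held 2, of which the second is the known filter and the first, with leucine, lies outside it, while each of the other 54 held 1. The codon between the glycines read tyrosine in 49 matches, phenylalanine in 23 and leucine in 4, the second pores of Kcnk1 and Kcnk6 and those extra matches of Kcna6 and Kcnh2. The windows that follow show 24 bases before the 3 filter codons, the codons in capitals, and 12 bases after. They are given for the GIRK genes (Kcnj3, Kcnj5, Kcnj6 and Kcnj9), for the strong inward rectifiers Kcnj2 and Kcnj4, whose region values follow, and for both pores of Kcnk1.
Kcnj3: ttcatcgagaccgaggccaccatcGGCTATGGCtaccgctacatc
Kcnj5: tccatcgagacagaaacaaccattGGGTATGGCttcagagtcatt
Kcnj6: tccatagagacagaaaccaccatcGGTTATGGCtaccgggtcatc
Kcnj9: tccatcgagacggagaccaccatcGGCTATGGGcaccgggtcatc
Kcnj2: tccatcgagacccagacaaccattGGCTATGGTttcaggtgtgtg
Kcnj4: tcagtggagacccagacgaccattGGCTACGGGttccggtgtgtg
Kcnk1 first pore: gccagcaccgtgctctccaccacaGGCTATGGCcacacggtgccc
Kcnk1 second pore: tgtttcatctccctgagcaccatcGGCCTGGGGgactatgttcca

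All are coding exon sequence of GENCODE M21 transcripts on GRCm38, written 5′ to 3′ on the strand of the gene. The Kcnj3 window is in exon 2 of 4 (chr2:55437609-55437653, plus strand), and those of Kcnj5 (chr9:32322547-32322591), Kcnj6 (chr16:94832765-94832809) and Kcnj9 (chr1:172326172-172326216) are in exon 3 of 4 on the minus strand. Kcnj2 (chr11:111072189-111072233, plus strand) and Kcnj4 (chr15:79485355-79485399, minus strand) carry theirs in exon 2 of 2. The first Kcnk1 window runs across the junction of exons 1 and 2 (chr8:125995790-126025031, intron included in the span) and the second lies in exon 2 of 3 (chr8:126025311-126025355), both on the plus strand. Against the 45 bases of Kcnj3, Kcnj9 differed at 8, Kcnj6 at 9, Kcnj5 and Kcnj2 at 13 and Kcnj4 at 16. Kcnk1, which encodes the two-pore subunit TWIK-1, has a tyrosine codon in the middle of its first filter and a leucine codon in the second.

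Ventral libraries held 8408829 to 11000345 counts and dorsal libraries 11314079 to 21921963, and their titles follow a different scheme in each region, so region and library set cannot be told apart. Striatal markers were present in both regions, and the 7 medium spiny neuron markers averaged 8.42 log2 CPM in 10 ventral libraries and 9.49 in the 10 dorsal ones. The 6 oligodendrocyte markers averaged 7.22 and 8.27, with the highest of those ventral libraries at 7.82 and the lowest dorsal one at 7.96. Both lists were thus higher in dorsal striatum, and their part in the region differences of the members was not tested. The sixth ventral libraries stood apart. In ventral saline library 6 the medium spiny neuron list was at 5.74 log2 CPM and the 7 glutamatergic markers at 6.6 (ventral mean of the other 10, 3.91). The markers of that library thus go against its striatal label. In ventral oxycodone library 6 the 6 choroid plexus and ependyma markers were at 4.35 log2 CPM (other 10, 0.861) and the 5 ventral striatum markers at 3.24 (other 10, 5.57; dorsal, 3.09). Its 5 dorsal striatum markers were at 7.33 (5.84 in the other 10, 7.50 in dorsal libraries). The medium spiny neuron and oligodendrocyte lists were at 9.50 and 8.13 in that library, so that its markers go against its ventral label. Of the 78 channel genes, ventral saline library 6 was the highest of its group for 45 and the lowest for 18, and ventral oxycodone library 6 the highest for 21 and the lowest for 23. Several results that rest on these libraries are given with and without them, and the others with all libraries only. In bulk tissue, fewer cells of a type and less RNA per cell cannot be told apart.

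Channel genes together took 0.402% ± 0.0462 of the counts in ventral saline libraries (SD, n = 6), 0.411% ± 0.0225 in ventral oxycodone (n = 6), 0.520% ± 0.0147 in dorsal saline (n = 5) and 0.521% ± 0.00946 in dorsal oxycodone (n = 5). The 10 dorsal libraries lay between 0.499% and 0.535%, above all 12 ventral ones, of which saline library 6 was the highest at 0.495%.

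Levels were compared between genes only as CPM per kilobase of annotated exon. Averaged over the means of the 4 groups, each weighted alike, which pools the regions, the order was as follows. Kcnj4, which encodes the strong inward rectifier Kir2.3, had the highest level at 69.4 CPM per kb. Kcnd2, the A-type channel subunit Kv4.2, followed at 47.3, then Kcnk1 at 39.9, Kcna1 (Kv1.1) at 38.7, Kcna4 (Kv1.4) at 35.0 and Kcnab1, a cytoplasmic beta subunit of Kv1 channels, at 33.8. Kcnip2, the Kv4 partner KChIP2, stood at 31.7, the sodium-activated channel Kcnt1 at 31.1, Kcnh3 (Kv12.2) at 30.7, Kcnab2 at 28.9 and Kcnq5 at 23.2 CPM per kb. The lowest member per length was Kcnj5, at 0.210. The places of Kcnk1 and Kcnab1 did not hold in ventral striatum: per kb they were 15.6 and 12.4 CPM in ventral saline, places 15 and 19, and 62.7 and 55.3 in dorsal saline, places 2 and 4. Kcnj4 was the highest in all 4 groups. The order rests on annotated exon length, and neighbours can differ by less than their spread, as Kcnt1 at 41.6 ± 4.15 CPM per kb and Kcnh3 at 40.5 ± 3.72 did in dorsal saline (SD, n = 5).

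The regions were compared first, in saline mice, by the edgeR quasi-likelihood test with Benjamini-Hochberg adjustment over all genes tested, and an adjusted p under 0.05 was called. Of 76 members tested, 42 were called (55.3%), against 45.8% of all 14433 genes tested. In dorsal striatum 24 members were higher (23.6% of all genes were) and 18 lower (22.3% of all genes). Dorsal and ventral libraries did not overlap for 32 members, 20 above and 12 below, or 42.1% against 30.4% of all genes (16.3% above and 14.1% below). The median log2 change was 0.075 over the members and -0.010 over all genes. The oxycodone mice gave the same comparison in libraries that the saline comparison did not use. There 46 of 75 members were called (61.3%, against 47.2% of all genes), 28 higher in dorsal (23.5% of all genes were) and 18 lower (23.7%), and 19 did not overlap, 14 above and 5 below (25.3%, against 28.0% of all genes, 15.1% above and 12.9% below). Members left untested because their counts were too low were Kcne2 and Kcnj14 in saline mice and Kcne2, Kcnj5 and Kcnmb2 in oxycodone mice.

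Both comparisons tested 74 members, of which 41 were called in saline and 45 in oxycodone. They called 32 in the same direction, 19 higher in dorsal and 13 lower, and none in opposite directions. These 32 are 78.0% of the saline calls, 71.1% of the oxycodone calls and 43.2% of the members tested in both, where 36.6% of all genes tested in both were called alike. Without the sixth ventral libraries the shared calls numbered 44, with all of the 32 among them, 27 higher in dorsal and 17 lower, which is 60.3% of the 73 tested in both, against 40.4% of all genes. In 11 members every one of the 10 dorsal libraries lay above all 12 ventral libraries, among them Kcnab1, Kcne1l, Kcng3, Kcnh3, Kcnip3, Kcnj4, Kcnk1, Kcnk13, Kcns2 and Kcnt1. Kcnip4 alone lay below in all 10, and the 12 members are 15.4% of 78, where 15.2% of all genes separated the regions this way. Against the 10 ventral libraries without the sixth ones, 19 members lay above and 6 below (32.1%, against 22% of all genes). A fit of all 22 libraries together called 48 of 78 members in saline and 36 in oxycodone mice (61.5% and 46.2%, against 48.8% and 43.3% of all genes), and among the named ones Kcnc2, Kcnh5, Kcnh7, Kcnj3, Kcnj6, Kcnj9, Kcnj16 and Kcnv1 then missed the threshold in oxycodone mice (adjusted p 0.0655 to 0.219). The titles of 5 dorsal libraries end in P, a mark whose meaning the labels do not give. With only the other dorsal libraries 39 and 32 members were called (50.6% and 41.0%, against 42.7% and 37.6% of all genes), and Kcnj3, Kcnj5, Kcnj6 and Kcnn1 in saline and Kcnc2, Kcnd2, Kcnh2, Kcnj2, Kcnj3, Kcnj6, Kcnj16, Kcnn1, Kcnq3 and Kcns1 in oxycodone mice missed the threshold. The plots of the region difference by family and in both sets of libraries show where each member fell.

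**Figure D1:**
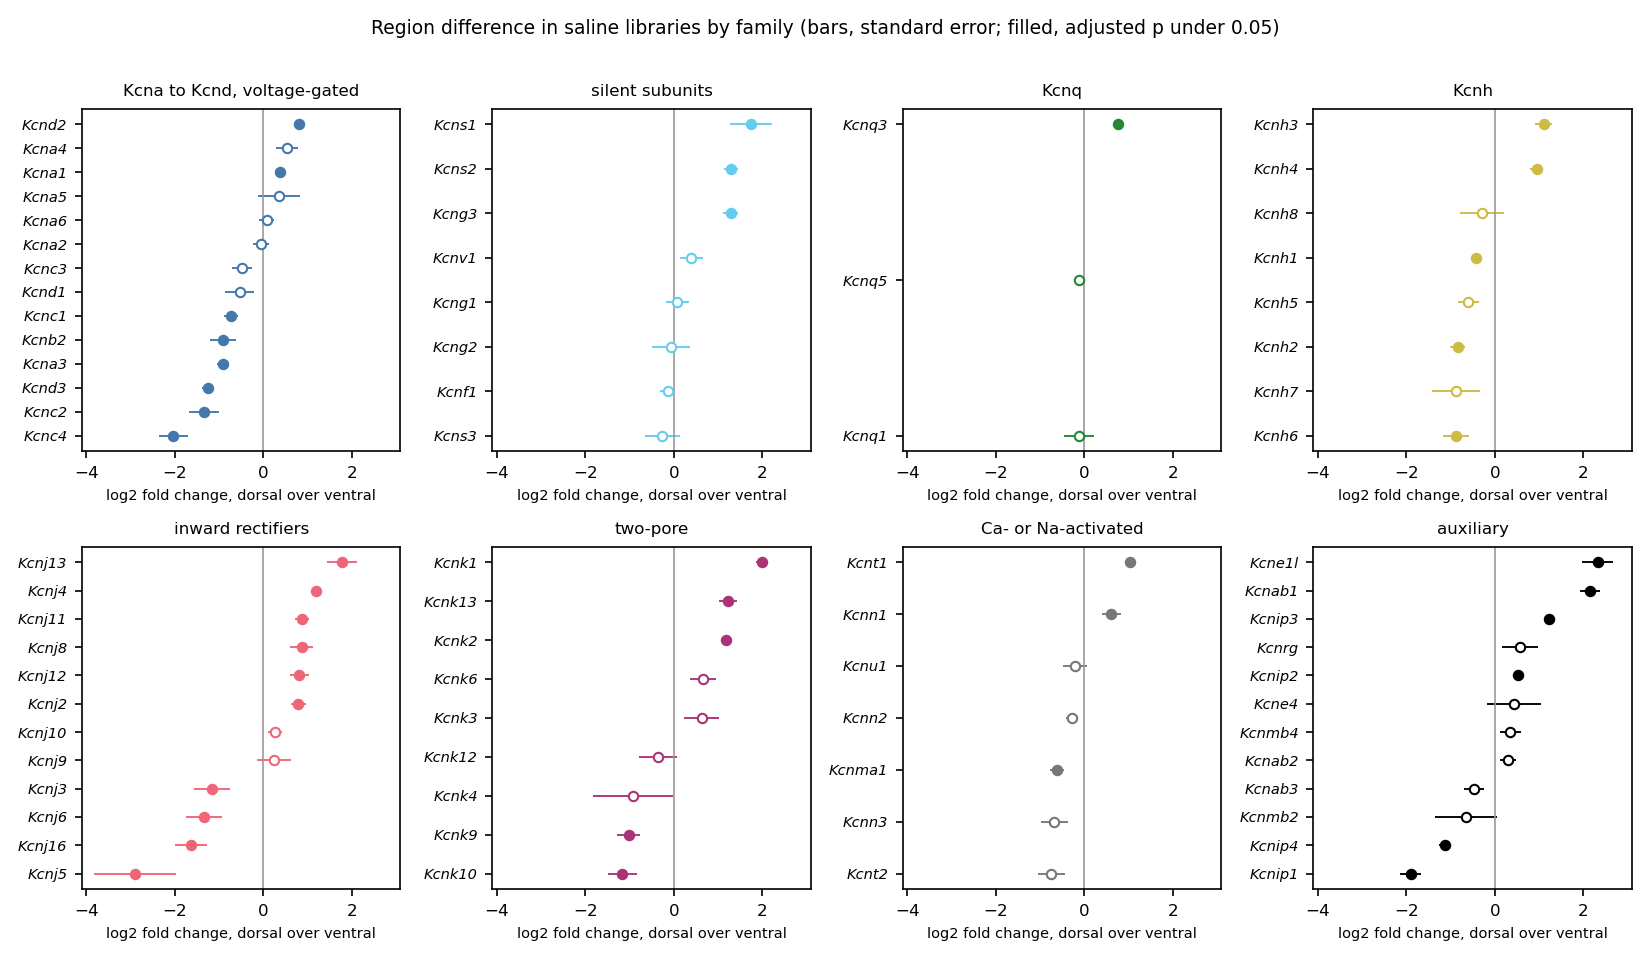
Log2 fold change of dorsal over ventral striatum in saline libraries (5 dorsal, 6 ventral) for the tested members reported here, by family; points are edgeR estimates, bars are the standard error, and filled points have an adjusted p under 0.05. Filled points fall on both sides of 0 in the voltage-gated, Kcnh, inward rectifier, two-pore, calcium- or sodium-activated and auxiliary families, and only above 0 among the silent subunits (3) and Kcnq.

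**Figure D2:**
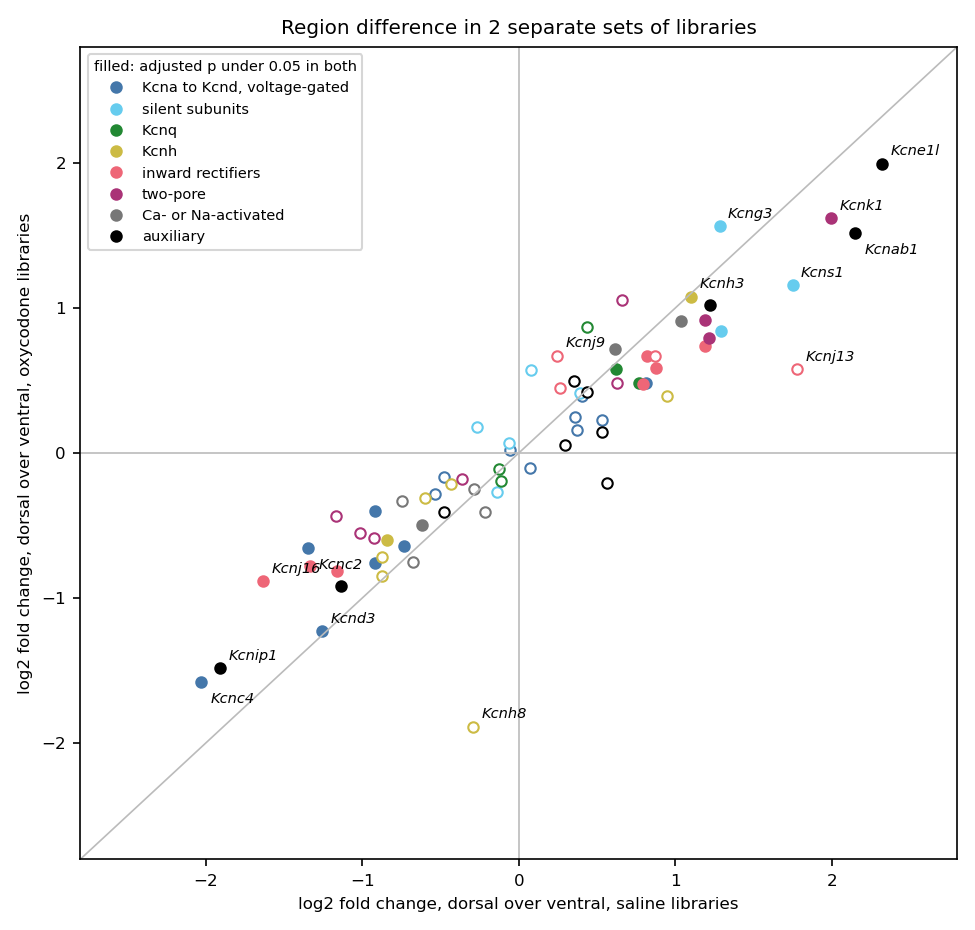
Log2 fold change of dorsal over ventral striatum in saline libraries (x axis) and in oxycodone libraries (y axis) for the 74 members tested in both, coloured by family; the diagonal marks equal change. The 32 filled points, called in both, all lie in the lower left or upper right quadrant.

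Voltage-gated subunits of the Kcna to Kcnd families open on depolarisation and end the action potential. In saline mice 2 of 15 were higher in dorsal striatum (Kcnd2 and Kcna1). There 6 were lower (Kcnc4, Kcnc2, Kcnd3, Kcna3, Kcnc1 and Kcnb2) and 7 did not pass. In oxycodone mice the counts were 2 higher, with Kcnd2 but not Kcna1 among them, and the same 6 lower. The Kv4 genes parted. Kcnd2 (chr6:21215503-21729805, plus strand, GRCm38) ranged from 110.0 to 205 CPM (median 180.3) in ventral saline and read 309, 275, 359, 281 and 306 CPM in dorsal saline. No dorsal library overlapped the ventral ones, and Kcnd2 was 1.76-fold higher (log2 0.82, SE 0.13, adjusted p 1.3e-04). Oxycodone libraries gave a 1.40-fold higher level (log2 0.48, adjusted p 0.00762), with ventral oxycodone library 6, at 306 CPM, inside the dorsal range. Kcnd3, which encodes Kv4.3, went the other way. It ranged from 56.2 to 66.3 CPM (median 63.9) in ventral saline and read 19.4, 25.5, 31.9, 31.0 and 24.7 CPM in dorsal saline, again without overlap, 2.38-fold lower (log2 -1.25, SE 0.12, adjusted p 1.5e-06). The oxycodone set gave a 2.34-fold lower level (adjusted p 2.4e-04), with ventral library 6, at 26.4 CPM, inside the dorsal range. As a share of the summed per-kb level of Kcnd1, Kcnd2 and Kcnd3, Kcnd3 went from 16.2% ± 2.94 in ventral saline to 4.40% ± 0.821 in dorsal saline (SD, n = 6 and 5), a description with no test of its own.

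The Kv3 genes encode the fast channels of rapidly firing neurons. The 3 parvalbumin interneuron markers averaged 3.06 log2 CPM in 10 ventral and 3.84 in 10 dorsal libraries, and the 7 glutamatergic markers 3.91 and 2.79, and their part in the Kv3 differences was not tested. Kcnc4 (Kv3.4) ranged from 10.6 to 40.8 CPM (median 21.6) in ventral saline and read 9.05, 4.04, 3.88, 6.06 and 4.35 CPM in dorsal saline. Every dorsal library was below every ventral one, and the change was 4.09-fold (log2 -2.03, SE 0.33, adjusted p 2.4e-04). It was 2.99-fold lower in oxycodone mice (adjusted p 0.0108), with dorsal values from 1.11 to 11.0 CPM and ventral library 6, at 7.62 CPM, inside that range. Kcnc2 (Kv3.2) was lower by 1.34 log2 units in saline mice (adjusted p 0.00600), and by 0.95 without ventral saline library 6, which held 114 CPM where the next highest held 48.5. Its call in oxycodone mice (log2 -0.65, adjusted p 0.0433) was lost when any of 9 single libraries was left out (adjusted p 0.0595 to 0.108; all but ventral library 6 and dorsal library 2). Kcna1, a Kv1 subunit of axons, was 1.30-fold higher in dorsal striatum of saline mice (adjusted p 0.00151). It was not called in oxycodone mice, where single omissions gave log2 0.13 to 0.22 and 1 of 11 passed the threshold.

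Auxiliary subunits bind the pore-forming ones and change their gating or surface level. Of 12 tested in saline mice, 4 were higher in dorsal striatum (Kcnab1, Kcne1l, Kcnip3 and Kcnip2), 2 lower (Kcnip1 and Kcnip4) and 6 not called, and in oxycodone mice 4 of 11 were higher and the same 2 lower. Kcnab1 (ENSMUSG00000027827, chr3:65109384-65378223, plus strand) ranged from 41.5 to 128 CPM (median 118) in ventral saline and from 113 to 273 CPM (median 126) in ventral oxycodone. It read 526, 433, 518, 437 and 459.6 CPM in dorsal saline and 448, 403, 463, 458 and 381 CPM in dorsal oxycodone. The extremes of both ventral groups were the sixth libraries, at 41.5 and 273 CPM, and no dorsal library overlapped a ventral one. The fold was 4.42 in saline (log2 2.15, SE 0.23, adjusted p 1.7e-05) and 2.86 in oxycodone (adjusted p 1.2e-04), and 3.99 and 3.49 without those libraries. Kcnab1 made up 30.3% ± 11.2 of the summed per-kb level of the 3 Kv beta genes in ventral saline and 60.8% ± 3.77 in dorsal saline, while Kcnab2 went from 59.1% ± 10.1 to 35.5% ± 4.01. The Kcnab1 share was 8.60% in ventral saline library 6, and the ventral saline mean without that library was 34.7%.

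The KChIP genes encode calcium-binding partners of Kv4 channels, and they too moved in both directions. Kcnip3 was 2.33-fold higher in dorsal saline, with ventral values from 24.2 to 31.0 CPM (median 28.5) and dorsal values of 63.3, 71.4, 75.9, 57.8 and 60.8 CPM (log2 1.22, SE 0.10, adjusted p 4.1e-07). Kcnip4 was 2.20-fold lower, with ventral values from 59.9 to 77.6 CPM (median 62.2) and dorsal values of 25.3, 22.2, 33.6, 36.2 and 29.5 CPM (log2 -1.14, SE 0.13, adjusted p 5.7e-06). Neither pair of groups overlapped. Kcnip1 was 3.75-fold lower, again without overlap, with ventral values from 17.6 to 39.9 CPM (median 33.6) and dorsal values of 5.94, 5.54, 10.9, 12.7 and 8.13 CPM (adjusted p 2.7e-05). In oxycodone mice the log2 changes were 1.02, -0.91 and -1.48, with adjusted p of 6.0e-07, 2.0e-05 and 6.8e-04 in the same order. Ventral oxycodone library 6 held 8.16 CPM of Kcnip1, inside the dorsal range. Of the summed per-kb KChIP level, Kcnip4 and Kcnip1 had ventral saline shares of 32.7% ± 6.46 and 9.48% ± 1.94 and dorsal saline shares of 12.9% ± 2.15 and 2.20% ± 0.699, and Kcnip3 went from 14.5% ± 1.52 to 29.6% ± 2.75. Kcnip2, the most abundant, was 1.45-fold higher in dorsal saline (adjusted p 0.00372) and was not called in oxycodone mice (adjusted p 0.380; 0.0490 without ventral library 6).

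Kcne1l, a small single-span subunit gene on the X chromosome (chrX:142304752-142306294, minus strand), had the largest positive log2 change among the members called in saline mice. It ranged from 0.471 to 1.38 CPM (median 1.03) in ventral saline and read 3.46, 9.05, 4.89, 3.69 and 4.77 CPM in dorsal saline, 5.00-fold higher (log2 2.32, SE 0.36, adjusted p 1.1e-04). It was 3.99-fold higher in oxycodone mice (adjusted p 1.0e-04), and no dorsal library overlapped a ventral one in either set. These are low levels, and Kcne1l did not pass the low-count filter where only ventral libraries were compared.

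**Figure D3:**
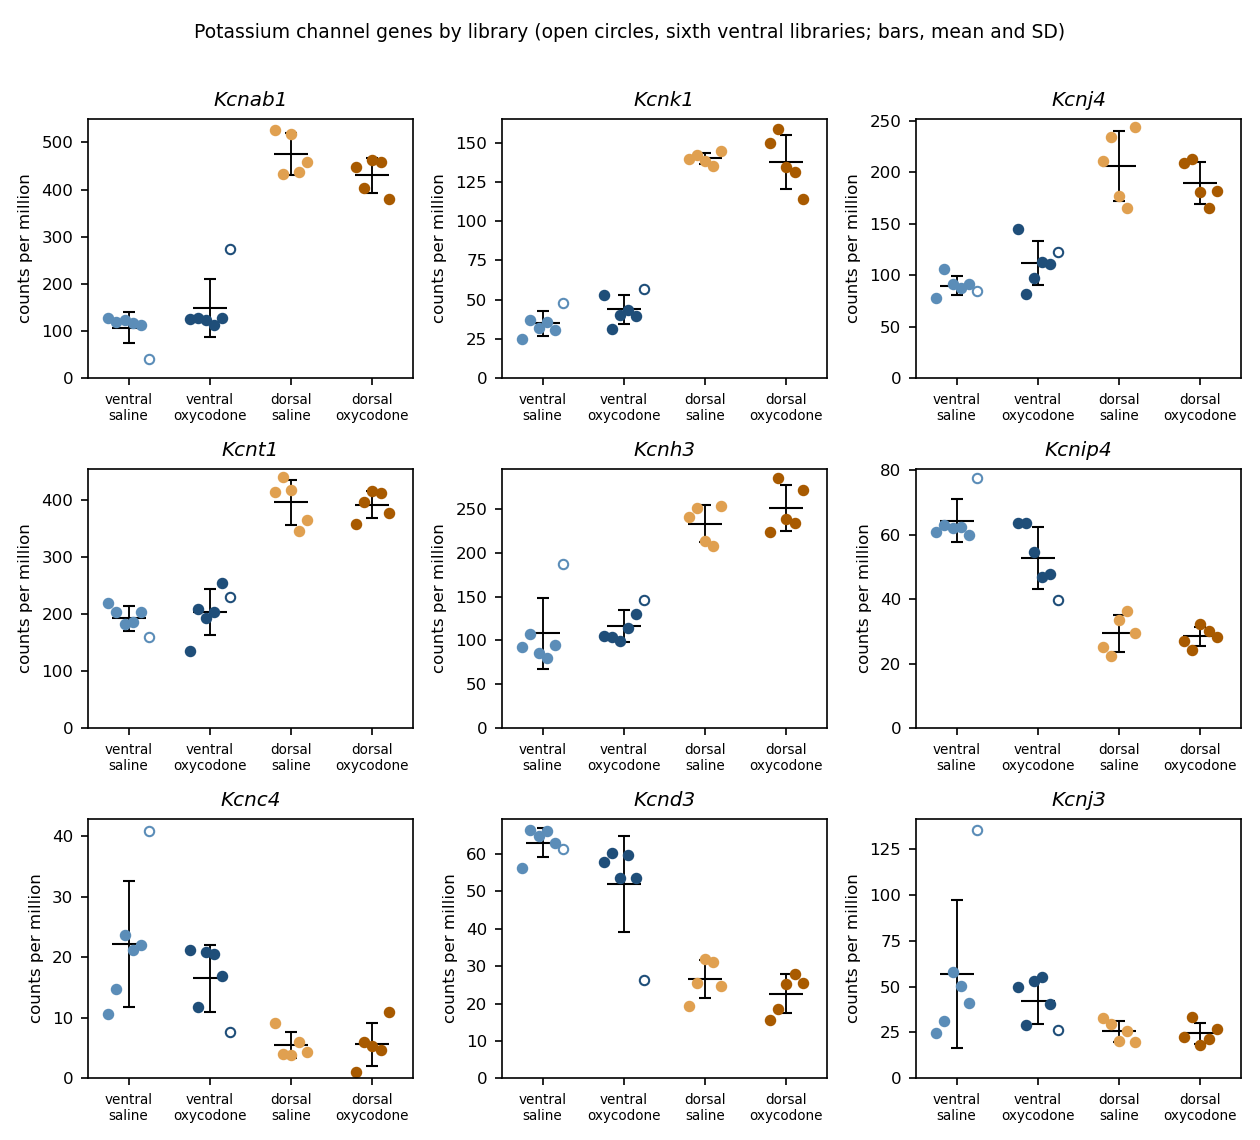
CPM of 9 channel genes in each of the 22 libraries by region and treatment; points are libraries, open circles are the sixth ventral libraries, and bars give the mean and SD of each group (n = 6 ventral, 5 dorsal). For Kcnab1, Kcnk1, Kcnj4, Kcnt1 and Kcnh3 all dorsal points lie above all ventral points and for Kcnip4 all lie below, whereas for Kcnj3 the ventral and dorsal points overlap.

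Silent subunits form no channel alone and modify other voltage-gated subunits. In saline mice 3 of 8 were higher in dorsal striatum (Kcns1, Kcns2 and Kcng3), none lower and 5 not called, and in oxycodone mice 5 were higher and none lower. Kcng3 ranged from 6.93 to 12.1 CPM (median 9.65) in ventral saline and read 17.9, 25.4, 29.7, 24 and 20.0 CPM in dorsal saline. It was 2.43-fold higher in saline (log2 1.28, SE 0.17, adjusted p 2.9e-05) and 2.96-fold in oxycodone mice (adjusted p 9.2e-08), and no libraries overlapped. Kcns2 ranged from 16.5 to 23.5 CPM (median 17.1) and read 50.9, 61.7, 35.3, 42.0 and 35.2 CPM, likewise without overlap (log2 1.29, SE 0.16, adjusted p 1.3e-05). Kcns1 went from a ventral saline median of 1.59 CPM to 11.0, 14.8, 7.98, 5.28 and 6.4 CPM (log2 1.75, adjusted p 0.00778), and overlapped only at ventral library 6, which held 7.83 CPM. Without that library its log2 change was 2.50 (adjusted p 5.5e-06). Kcnv1 was not called in saline mice (log2 0.39, adjusted p 0.248) and was without ventral library 6 (log2 0.75, adjusted p 1.4e-05). In oxycodone mice it was called (log2 0.41, adjusted p 0.00145).

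Kcnq genes include those of the M-type channels, which muscarinic and other receptors close. In saline mice 2 of 5 were higher in dorsal striatum and none lower, and in oxycodone mice 3 were higher and none lower. Kcnq3 ranged from 115 to 179 CPM (median 131) in ventral saline and read 207, 238, 284, 219 and 228 CPM in dorsal saline. It was 1.70-fold higher in saline (log2 0.77, SE 0.12, adjusted p 1.0e-04) and 1.40-fold in oxycodone mice (adjusted p 0.00968). Ventral oxycodone library 6, at 231 CPM, lay above dorsal oxycodone library 2, at 196 CPM. With single libraries left out, the log2 change of Kcnq3 in oxycodone mice ranged from 0.44 to 0.66. Kcnq5 was not called in saline mice (log2 -0.11, 95% interval -0.28 to 0.060).

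Among the Kcnh genes, of the EAG, ERG and ELK types, 2 of 8 were higher in dorsal striatum of saline mice (Kcnh3 and Kcnh4), 3 lower (Kcnh1, Kcnh2 and Kcnh6) and 3 not called. In oxycodone mice 1 was higher, Kcnh3, and 4 lower (Kcnh2, Kcnh5, Kcnh7 and Kcnh8). Kcnh3, an ELK-type channel of forebrain neurons, ranged from 80.0 to 188 CPM (median 93.6) in ventral saline and read 240.0, 251, 213, 208 and 253 CPM in dorsal saline. Ventral library 6 gave the ventral maximum, the next being 107 CPM, and no dorsal library overlapped. Kcnh3 was 2.14-fold higher in saline (log2 1.10, SE 0.19, adjusted p 5.3e-04) and 2.11-fold in oxycodone mice (adjusted p 5.3e-07). Kcnh4 was 1.93-fold higher in saline (adjusted p 8.2e-05) and not called in oxycodone mice (log2 0.39, adjusted p 0.119), where leaving out ventral library 6, at 54.5 CPM, gave log2 0.64 (adjusted p 4.2e-04). Kcnh2, the ERG1 gene, was lower by 0.84 and 0.60 log2 units in the saline and oxycodone sets (adjusted p 9.9e-04 and 0.00270). Kcnh7 (ERG3) held 368 CPM in ventral saline library 6 and at most 95.3 in the other 5, and its log2 change of -0.87 (adjusted p 0.220) was -0.059 without that library (adjusted p 0.831).

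Inward rectifiers pass current best near rest and include the strong Kir2 channels, the G-protein-gated GIRK channels and the ATP-sensitive channels. Of 12 tested in saline mice, 6 were higher in dorsal striatum (Kcnj4, Kcnj2, Kcnj12, Kcnj11, Kcnj8 and Kcnj13), 4 lower (Kcnj3, Kcnj5, Kcnj6 and Kcnj16) and 2 not called. In oxycodone mice 7 of 12 were higher, among them Kcnj9, Kcnj10 and Kcnj14, and 3 lower. Kcnj14 passed the low-count filter neither in the saline comparison nor where only ventral libraries were compared. The Kir2 genes Kcnj2, Kcnj4 and Kcnj12 were on the higher side in both sets. Kcnj4 (ENSMUSG00000044216, chr15:79483714-79505241, minus strand) ranged from 77.9 to 106 CPM (median 89.4) in ventral saline and from 81.9 to 145 CPM (median 112) in ventral oxycodone. It read 211, 234, 177, 166 and 244 CPM in dorsal saline and 209, 213, 181, 165 and 182 CPM in dorsal oxycodone. Every dorsal library was above every ventral one, 2.28-fold in saline (log2 1.19, SE 0.11, adjusted p 9.5e-07) and 1.67-fold in oxycodone (adjusted p 1.2e-04). Kcnj2 (Kir2.1) was 1.73-fold higher in saline (adjusted p 0.00134), with overlapping libraries. Its call in oxycodone mice (log2 0.48, adjusted p 0.0435) was lost when any of 8 single libraries was left out (adjusted p 0.0513 to 0.101; all but ventral library 6 and dorsal libraries 2 and 5). Kcnj11 (Kir6.2, the pore of the ATP-sensitive channel) was 1.83-fold and 1.5-fold higher in the saline and oxycodone sets (adjusted p 5.1e-04 and 0.00145).

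The GIRK genes were not uniform, with Kcnj3, Kcnj5 and Kcnj6 lower in dorsal striatum and Kcnj9 not. Kcnj3 (GIRK1; ENSMUSG00000026824, chr2:55435970-55598145, plus strand) ranged from 24.5 to 135 CPM (median 45.7) in ventral saline and read 32.8, 29.4, 20.6, 25.8 and 19.8 CPM in dorsal saline. The groups overlapped, and Kcnj3 was 2.24-fold lower (log2 -1.16, SE 0.41, adjusted p 0.0377). Among oxycodone libraries Kcnj3 was 1.76-fold lower (log2 -0.81, adjusted p 0.00613). Kcnj6 (GIRK2) ranged from 15.4 to 82.6 CPM (median 31.8) in ventral saline and read 22.1, 14.1, 11.8, 16 and 9.30 CPM in dorsal saline, 2.52-fold lower (log2 -1.34, SE 0.40, adjusted p 0.0179), and was 1.71-fold lower in oxycodone mice (adjusted p 0.0367). Ventral saline library 6 was the highest for both, at 135 and 82.6 CPM, and without it the log2 changes in saline were -0.67 and -0.90 (adjusted p 0.0104 and 0.00471). The Kcnj3 call in saline was lost without ventral library 3 or 4 or dorsal library 2, 3, 4 or 5 (adjusted p 0.0534 to 0.0777) and with no filter on low counts (0.0558), and the Kcnj6 call in oxycodone without any of 7 single libraries (adjusted p 0.0625 to 0.0992; all but ventral libraries 1, 2 and 6 and dorsal library 5). Exons of Gm26794 overlap 31.08% of the Kcnj3 exon length, and whether the counting used strand is not given in the sources used here.

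Kcnj9, the GIRK3 gene, did not share that direction. It ranged from 10.1 to 48.6 CPM (median 13.7) in ventral saline, 48.6 being library 6 and the next 16.7, and read 28.7, 25.8, 17.2, 26.1 and 16.4 CPM in dorsal saline. With all libraries it was not called (log2 0.25, SE 0.39, adjusted p 0.641), and without ventral library 6 it was higher in dorsal striatum (log2 0.81, adjusted p 0.00154). In oxycodone mice it was 1.59-fold higher (log2 0.67, SE 0.17, adjusted p 0.00418). Kcnj9 made up 17.6% to 24.3% of the summed per-kb GIRK level in the 6 ventral saline libraries, library 6 included, and 41.3% to 46.2% in the 5 dorsal saline libraries. In oxycodone mice the ranges were 20.2% to 27.2% and 36.9% to 56.6%, so the shares did not overlap in either set. The share of Kcnj3 went from 52.0% ± 2.74 to 40.5% ± 2.18 in saline, and that of Kcnj6 from 23.3% ± 1.83 to 15.5% ± 1.76. Kcnj5 (GIRK4) was near the detection limit, with 26, 36, 23, 24, 11 and 6 counts in the ventral saline libraries and 17, 0, 0, 2 and 1 in the dorsal saline ones. A count of 0 allows up to 3 counts. Its call in saline mice (log2 -2.90, SE 0.93, adjusted p 0.0201) was made on a gene that passed the low-count filter through its ventral libraries, and was lost without dorsal library 4 or 5 (adjusted p 0.0520 to 0.0542). With single libraries left out its log2 difference ranged from -5.42 to -2.57.

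Among the ventral saline libraries, markers of glutamatergic neurons were highest in library 6, as were Kcnj3, Kcnj6 and Kcnj9 but not Kcnj5. The summed level of the 7 markers was 70.9 to 392 CPM in ventral saline libraries 1 to 5, 1553 in library 6 and 69.3 to 188 in dorsal saline. Slc17a7, the vesicular glutamate transporter gene among them, was at 37.1 and 58.5 CPM in ventral saline libraries 1 and 2, where Kcnj3 was lowest of its group at 24.5 and 31.3 CPM. It was at 211 to 281 CPM in libraries 3 to 5, where Kcnj3 was at 41.2 to 57.9, and at 989.8 CPM in library 6. The part of these markers in the GIRK result was not tested.

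**Figure D4:**
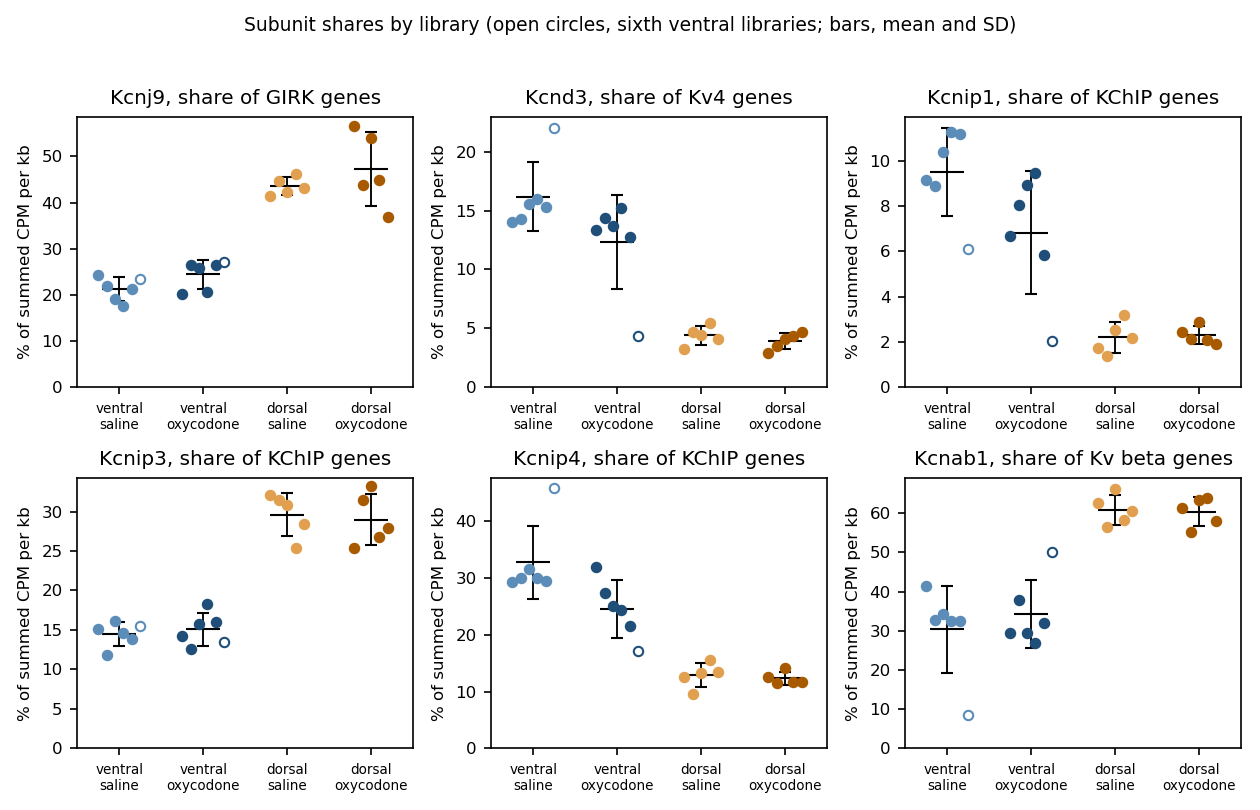
Share of a gene in the summed CPM per kb of its subunit group, in percent, for each of the 22 libraries; open circles are the sixth ventral libraries, and bars give the mean and SD of each group. The Kcnj9 share of the 4 GIRK genes and the Kcnip3 share of the 4 KChIP genes lie higher in every dorsal library than in any ventral one, and ventral oxycodone library 6 lies within the dorsal range for Kcnd3 and Kcnip1.

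Kcnj13 (Kir7.1), known from choroid plexus epithelium, was 3.43-fold higher in dorsal saline (log2 1.78, SE 0.34, adjusted p 7.6e-04), from 3.57 to 9.33 CPM (median 5.54) in ventral saline to 13.8, 24.1, 8.99, 26.4 and 34.8 CPM. In oxycodone mice it was not called (adjusted p 0.326; 0.0497 without ventral library 6, which held 19.0 CPM). The 6 choroid plexus and ependyma markers summed to 22.6 to 33.7 CPM in ventral saline libraries 1 to 5 and to 361 to 3522 in dorsal saline. Dorsal saline library 3 had the lowest of both, with Ttr at 339 and Kcnj13 at 8.99 CPM, and the others had Ttr at 2001 to 3451 CPM. The part of these cells in the Kcnj13 result was not tested, and 49.06% of its exon length overlaps exons of Gigyf2 on the other strand. Kcne2, another channel gene of that epithelium, passed the filter in neither region comparison, at 0 to 0.433 CPM in ventral saline and 0.647 to 6.94 CPM in dorsal saline. Kcnj16 (Kir5.1) was 3.1-fold lower in dorsal saline, from 10.1 to 17.2 CPM (median 14.9) to 3.64, 0.703, 5.68, 6.47 and 6.26 CPM, without overlap (adjusted p 0.00250), and its call in oxycodone mice (log2 -0.88, adjusted p 0.0377) was lost when any of 7 single libraries was left out (adjusted p 0.0516 to 0.105; all but ventral libraries 5 and 6 and dorsal libraries 2 and 5). Kcnj10 (Kir4.1), with which Kir5.1 assembles in astrocytes, was not called in saline mice (log2 0.26, 95% interval -0.060 to 0.59). The 6 astrocyte markers summed to 663 to 756 CPM in ventral saline libraries 1 to 5 and to 766 to 881 in dorsal saline, and their part in the Kcnj16 result was not tested.

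Two-pore channels carry leak current at rest. In saline mice 3 of 9 were higher in dorsal striatum (Kcnk1, Kcnk2 and Kcnk13), 2 lower (Kcnk10 and Kcnk9) and 4 not called, and in oxycodone mice 4 were higher, the same 3 and Kcnk6, and none lower. Kcnk1 (ENSMUSG00000033998, chr8:125995170-126030685, plus strand) ranged from 24.7 to 48.0 CPM (median 34.1) in ventral saline and from 31.2 to 56.7 CPM (median 41.7) in ventral oxycodone. It read 140.0, 142, 138, 135 and 145 CPM in dorsal saline and 149.7, 159, 135, 131 and 114 CPM in dorsal oxycodone. All 10 dorsal libraries lay above all 12 ventral ones, 3.99-fold in saline (log2 2.00, SE 0.13, adjusted p 5.0e-08, the lowest of the members) and 3.07-fold in oxycodone (adjusted p 1.6e-07). Kcnk2, the mechano- and heat-sensitive TREK-1, was 2.28-fold higher in saline (adjusted p 5.1e-07) and 1.89-fold in oxycodone (adjusted p 2.4e-04). Kcnk13 (THIK-1), known from microglia, was 2.33-fold and 1.74-fold higher (adjusted p 2.4e-04 and 0.00139), while the 6 microglia markers summed to 319 to 392 CPM in ventral saline libraries 1 to 5 and to 506 to 537 in dorsal saline. Their part in it was not tested. Kcnk10 (TREK-2) was 2.25-fold lower in dorsal saline (adjusted p 0.00900), with libraries at 2.66, 1.23, 3.16, 3.87 and 5.79 CPM against a ventral minimum of 6.06 CPM. Exons of other genes overlap 8.01% of the Kcnk1 and 12.22% of the Kcnk2 exon length.

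Channels gated by internal calcium or sodium shape the pauses after spikes. The 7 members here were grouped by family and not by gating, and include Kcnu1. In saline mice 2 of 7 were higher in dorsal striatum (Kcnt1 and Kcnn1), 1 lower (Kcnma1) and 4 not called, and in oxycodone mice the same 2 were higher and 3 lower, Kcnma1, Kcnn3 and Kcnt2. Kcnt1, the sodium-activated Slack channel, ranged from 159 to 219 CPM (median 194) in ventral saline and read 413, 439, 416, 345 and 364 CPM in dorsal saline. It was 2.05-fold and 1.88-fold higher in the saline and oxycodone sets (log2 1.03 and 0.91, adjusted p 6.4e-07 and 1.4e-05), with no overlap in either. Kcnma1, the pore of the large-conductance BK channel, ranged from 245 to 476 CPM (median 312) in ventral saline and read 224, 196, 241, 212 and 184 CPM in dorsal saline, 1.54-fold lower and also without overlap (log2 -0.62, SE 0.15, adjusted p 0.00385). In oxycodone mice it was 1.41-fold lower (adjusted p 7.1e-04). Of the small-conductance genes, Kcnn3 was not called in saline (log2 -0.68, adjusted p 0.0880), a difference that was called without ventral library 6 (log2 -0.86, adjusted p 3.0e-06) and in oxycodone mice (log2 -0.75, adjusted p 1.5e-04). Kcnn3 held 13.9 CPM in that library and at least 53.1 in the other 5. Kcnn1 was 1.53-fold and 1.64-fold higher (adjusted p 0.0364 and 0.00923), and lost its saline call without ventral library 1, 2, 3 or 5 or dorsal library 4 or 5 (adjusted p 0.0612 to 0.0952). Kcnn2 was called in neither set (log2 -0.28 and -0.25, adjusted p 0.0807 and 0.155).

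A list of 45 partner genes without a Kcn symbol, for subunits, scaffolds, G-protein parts and pumps that act with these channels, was tested in the same fits. Of 44 tested, 28 were called between regions in saline mice, 15 higher in dorsal and 13 lower (63.6%, against 45.8% of all genes), and 27 in oxycodone mice, 14 higher and 13 lower (61.4%, against 47.2% of all genes). Gnb5, the G-protein beta subunit that pairs with R7 RGS proteins and tunes GIRK signalling, was at 109 ± 19.3 CPM in ventral saline and 379 ± 36.2 in dorsal saline (log2 1.79, adjusted p 6.2e-08). Gnb2 was also higher (log2 0.93), and Atp1b1, a sodium-potassium pump subunit, lower (log2 -0.997). Libraries of the regions did not overlap for any of these 3, and in saline mice they did not for 30.4% of all genes. These 3 were named for their low p among the partners, so their lack of overlap is not a separate result.

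Oxycodone was then compared with saline within each region. No member was called in dorsal striatum, 0 of 77 against 0.206% of all 14595 genes, and none in ventral striatum, 0 of 74 against 0.0% of 14116, by edgeR, and DESeq2's Wald test called no member in either region (85 genes in dorsal and 38 in ventral striatum). At an unadjusted p under 0.05 there were 7 members in dorsal striatum (9.09%, against 5.64% of all genes) and 11 in ventral (14.9%, against 9.13%). In no member did the oxycodone and saline libraries of a region separate, as they did in 1.3% of all genes in dorsal and 0.758% in ventral striatum. The median log2 change was 0.007 in dorsal and -0.082 in ventral striatum, and the median SE of a member 0.19 and 0.20. The ventral median changed direction with the sixth libraries: 31 of 74 members had a positive change with them and 50 of 73 without, with medians of -0.082 and 0.093. Of all genes, 49.1% and 48.3% were positive, with medians of -0.003 and -0.005. The 8 ventral libraries of lane 1 gave a median of 0.072 and the 4 of lane 2, both sixth libraries among them, -0.28, with no member called in either lane. No member was called among dorsal libraries with or without the title suffix P either.

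In ventral striatum Kcna1 had the lowest p. It ranged from 127 to 163 CPM (median 153) in saline and from 153 to 206 CPM (median 189) in oxycodone libraries, which overlapped, with log2 0.30 (SE 0.081, unadjusted p 0.00245, adjusted p 0.393). Kcnh2, Kcnk13, Kcnip2 and Kcnj2 followed, with log2 values of -0.33, 0.53, 0.43 and 0.44 and adjusted p from 0.482 to 0.487. In dorsal striatum Kcnh1, an EAG-type channel, read 96.1, 125, 123, 137 and 109 CPM in saline and 138, 139, 137, 135 and 179 CPM in oxycodone libraries (log2 0.30, SE 0.098, adjusted p 0.400). These groups overlapped only at the highest saline library. Kcna5 and Kcns1 had log2 values of 0.33 and -0.92 (adjusted p 0.488 and 0.513). Kcnh8, an ELK-type channel at low level, read 0.532, 5.80, 2.59, 2.73 and 2.90 CPM and 1.00, 0.402, 1.51, 0.287 and 0.860 CPM (log2 -1.83, SE 0.65, adjusted p 0.493), and Kcnh7 had log2 -0.31 (adjusted p 0.725).

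The GIRK genes encode channels that opioid receptors open. In dorsal striatum the log2 change with oxycodone was -0.066 for Kcnj3 (95% interval -0.41 to 0.28), 0.090 for Kcnj6 (-0.36 to 0.54) and 0.18 for Kcnj9 (-0.17 to 0.54). In ventral striatum the values were -0.43 (-1.16 to 0.31), -0.48 (-1.24 to 0.29) and -0.26 (-0.97 to 0.46). Without both sixth libraries the ventral values were 0.15, 0.024 and 0.35 (adjusted p 0.893, 0.994 and 0.496). Kcnj5, tested in ventral striatum only, was at -1.06 (-2.03 to -0.095, adjusted p 0.547), and at -1.17 without those libraries (adjusted p 0.372). The best-measured members had narrow intervals, such as Kcnt1 in dorsal striatum (log2 -0.015, -0.16 to 0.13) and Kcnab1 (-0.14, -0.29 to 0.007).

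**Figure D5:**
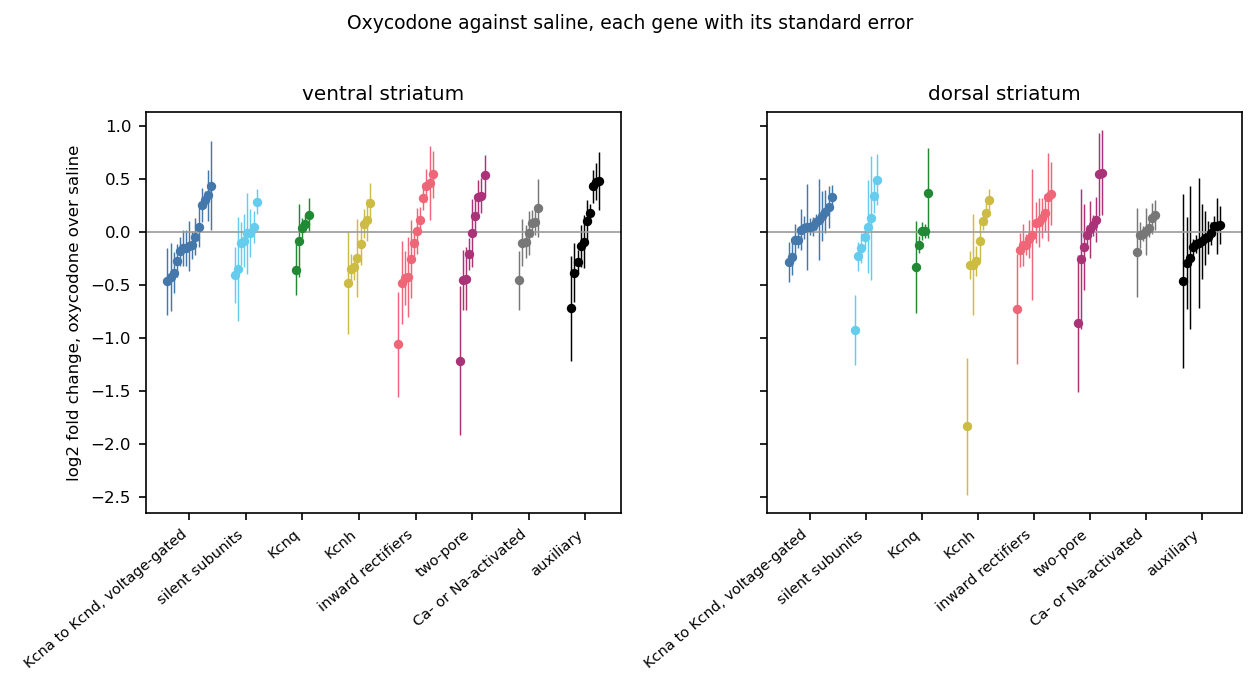
Log2 fold change of oxycodone over saline for each tested member in ventral (74 members; 6 and 6 libraries) and dorsal striatum (77 members; 5 and 5 libraries), by family; bars are the standard error, and no member has an adjusted p under 0.05. Points lie on both sides of 0 in every family and region, and the dorsal point at -1.83 is Kcnh8.

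Whether the oxycodone change differed between regions, which is also whether the region difference depended on treatment, was tested over all 22 libraries. None of 78 members was called (0.0% of 14938 genes were), 4 had an unadjusted p under 0.05 (5.13%, against 4.51% of all genes), and DESeq2 called none and had 5. The lowest p was that of Kcnj4, whose oxycodone change was 0.32 in ventral and -0.12 in dorsal striatum, a difference of -0.43 on the log2 scale (SE 0.17, unadjusted p 0.0169, adjusted p 0.981). Kcnh8, Kcns2, Kcnh4 and Kcnk10 followed with differences of -1.58, -0.43, -0.54 and 0.75. That of Kcnh4 was -0.34 without both sixth libraries and -0.65 to -0.31 with single libraries left out. For Kcnab1, whose region difference was log2 2.15 in saline and 1.51 in oxycodone mice, the difference was -0.61 (95% interval -1.26 to 0.039, adjusted p 0.981), and -0.19 without both sixth libraries (SE 0.10, unadjusted p 0.0718).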

How the data were processed

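RNA-seq was measured in 22 striatal libraries. The deposited table gives whole-number counts per Ensembl gene. Per the labels' protocols, total RNA (miRNeasy) was made into stranded libraries after Ribo-Zero depletion, and the submitters' processing notes name CASAVA 1.8.2, STAR 2.3 and featureCounts and the builds mm10, GRCm38 and mm9, with no role for each. Symbols, exon lengths and coding windows came from GENCODE M21 on GRCm38, and 22282 of 23119 identifiers matched (96.4%).

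Members were chosen on CPM over total counts, and printed CPM values use TMM-scaled library sizes. Each comparison was fitted on its own libraries in edgeR 4.0.16 (R 4.3.3, filterByExpr, TMM, robust quasi-likelihood test, two-sided) over all genes tested, with Benjamini-Hochberg adjustment. SE is the log2 change divided by the square root of F, and 95% intervals are normal. The step was tested on simulated counts. The least different pair of libraries in a group had a chi-square of 2.88 per degree of freedom, so none was counted as a duplicate.

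Alternatives were DESeq2 1.42.0, its size factors, no filter, single libraries or both sixth ventral libraries left out, a replicate block, a fold of at least 1.5, all 22 libraries in 1 fit, lane, the title suffix P, summed libraries of shared number, and a threshold of 0.1. The unblocked fit of the block's libraries, the single lanes and the subsets by suffix were chosen after seeing the data. The members, lists and tests were chosen with earlier results of these data known. Named members were the 2 highest per kb of each family, the 8 largest rises and falls called between regions in saline mice, the 5 lowest p in each oxycodone comparison and the interaction, and a set list of GIRK, Kir2, Kv4, Kcnq, BK and SK genes. Partners named were taken from the 4 of lowest p. A few genes that these rules name are not reported here. Members called are otherwise listed only to account for a count. No sample was left out.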

Additional observations from a re-analysis of the deposited data

Results flagged for a closer look

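In 172 groups of libraries, made up of 43 named members in 4 groups each, the highest or lowest library was compared with its nearest neighbour by Dixon's gap ratio. In 29 of them the gap exceeded the 95% critical value, where chance gives about 1 in 20. Ventral saline library 6 accounted for 16. It was far above the other 5 for Kcnc2 at 114 CPM (48.5), Kcnf1 at 86.4 CPM (49.9), Kcnh3 at 188 CPM (107), Kcnh5 at 185 CPM (104), Kcnh7 at 368 CPM (95.3), Kcnj3 at 135 CPM (57.9), Kcnj6 at 82.6 CPM (36.9), Kcnj9 at 48.6 CPM (16.7), Kcns1 at 7.83 CPM (2.14) and Kcnv1 at 98.7 CPM (44.8), the nearest other library standing in parentheses. It was far below them for Kcna1 at 127 CPM (152), Kcna5 at 2.55 CPM (35.6), Kcnab1 at 41.5 CPM (112), Kcnd2 at 110.0 CPM (178), Kcnip1 at 17.6 CPM (31.8) and Kcnn3 at 13.9 CPM (53.1). Ventral oxycodone library 6 accounted for 7. It was high for Kcnab1 at 273 CPM (127), Kcnd2 at 306 CPM (198), Kcnh4 at 54.5 CPM (31.1), Kcnj13 at 19.0 CPM (8.62), Kcnk2 at 68.1 CPM (43.9) and Kcnq3 at 231 CPM (157) and low for Kcnd3 at 26.4 CPM (53.5). Glutamatergic neuron markers were high and medium spiny neuron markers low in the first library, and choroid plexus markers were high and ventral striatum markers low in the second, with the values given in the report. Their part in these values was not tested.

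The other 6 were single libraries of other groups. Kcne1l stood at 9.05 CPM in dorsal saline library 2, where the nearest of its group was at 4.89 CPM. Kcnh1 stood at 179 CPM in dorsal oxycodone library 5, where the nearest of its group was at 139 CPM. Kcnj5 stood at 1.51 CPM in dorsal saline library 1, where the nearest of its group was at 0.0911 CPM. Kcnj5 stood at 1.29 CPM in dorsal oxycodone library 5, where the nearest of its group was at 0.167 CPM. Kcnq3 stood at 196 CPM in dorsal oxycodone library 2, where the nearest of its group was at 219 CPM. Kcns2 stood at 23.5 CPM in ventral saline library 2, where the nearest of its group was at 18.5 CPM.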

How the results depend on the processing

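Region calls depended on the size of change asked for. Tested against a fold change of at least 1.5, 19 members were called between regions in saline mice and 13 in oxycodone mice (25.0% and 17.3%, against 12.5% and 9.82% of all genes), in place of 42 and 46. Leaving out single libraries gave 37 to 51 members in saline and 38 to 50 in oxycodone mice. Over all genes 5929 to 7227 and 6034 to 6900 were called, of 14256 to 14461 and 14483 to 14526 tested. Both oxycodone comparisons and the difference between regions gave 0 members throughout. DESeq2 called 46 of 76 and 47 of 75 members, against 7013 of 14433 and 7022 of 14375 genes. DESeq2 size factors gave 42 and 46 members, against 6637 and 6788 of the same genes. No filter on low counts gave 43 and 43 of 78 members, against 6803 of 19003 and 6932 of 18854 genes. With no filter Kcnc2, Kcnj2 and Kcnj6 missed the threshold in oxycodone mice (adjusted p 0.0502 to 0.0678). Over the named genes, without the counts of members, direction and side of the threshold held in 1092 leave-one-out values. There 45 lost and 17 gained a call and 1 reversed. Over the other alternatives 777 held, 65 lost and 28 gained a call and 5 reversed. Reversals concerned the log2 change of Kcnf1 and Kcnh7 between regions in saline mice, neither of which was called (-0.14 and -0.87 with all libraries). Kcnf1 was at 0.078 without ventral library 6, and single omissions took it from -0.20 to 0.078. The cause was not tested.

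Title numbers shared across regions were tried as a replicate block. Deviations of same-numbered libraries correlated between -0.076 and 0.31, and 3 of 8 correlated best with their own number. With so few candidates for each, that cannot tell whether a shared number means the same animal. The labels do not say either, and the numbers were not taken as pairs. With the block 48 and 54 of 77 members were called in saline and oxycodone mice, against 51 and 49 in the same libraries unblocked. Of all genes, 5861 of 14499 and 6657 of 14799 were called with the block, and 6484 and 6391 unblocked. In the difference between regions 0 members were called. Kcnf1 was at 0.10 with the block and 0.086 without it, and Kcnh7 at 0.076 and 0.0021. The saline call of Kcnj3 was lost with the block (log2 -0.54, adjusted p 0.0668) and held in the same libraries unblocked. Low counts limit Kcnj5, Kcnj14, Kcne1l, Kcne2, Kcne4 and Kcnmb2.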

Other observations

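Among partner genes singled out after their values were seen, Dpp10, an auxiliary subunit of Kv4 channels, was at 240.0 ± 38.5 CPM in ventral saline and 83.8 ± 15.8 in dorsal saline (SD, n = 6 and 5; log2 -1.52, SE 0.14, edgeR adjusted p 9.2e-07), and lower in oxycodone mice as well (log2 -1.09, adjusted p 4.7e-05). Gng2, a G-protein gamma subunit gene, was at 32.3 ± 7.94 and 5.94 ± 1.69 CPM (log2 -2.44, adjusted p 7.3e-07; oxycodone mice, log2 -1.35, adjusted p 3.2e-04). The libraries of the regions did not overlap for either gene in either set, where 30.4% of all genes in saline and 28.0% in oxycodone mice did not.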
